A study of Mus musculus with 12 samples.

Results

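The 9 genes described here encode components and regulators of complement, the cascade of plasma proteins that marks and lyses cells. They are the proteases C1ra, C1s1 and Masp1, the convertase proteins C4b, C3 and Cfb, and the regulators Serping1, Cd55 and Cd59a. They were found by symbol among the 54232 genes of the deposited count table, each under 1 Ensembl identifier. A further list of 48 complement genes, grouped by role, served as their setting.

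Complement begins when the C1 complex binds antibody or when lectins bind sugars on a surface, and the proteases of either complex then cleave C4 and C2 to form a convertase. The convertase cleaves C3, whose larger fragment attaches to the surface, and factor B builds a further convertase that amplifies the deposition. Cells restrain the cascade with the C1 inhibitor, with CD55, which speeds the decay of convertases, and with CD59, which blocks the membrane attack complex. Most circulating complement is made by the liver, while fibroblasts, macrophages and many tumor cells also transcribe parts of it.

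RNA was sequenced from B16F10 cells, a melanoma line of C57BL/6 mice, in 12 libraries of 4 groups with 3 libraries each. WT libraries came from untreated cultured cells. Relapsed libraries (ITF1, Rel and ITM) came from cells sorted out of tumors that had relapsed after immunotherapy and then grown in culture. Lyso libraries came from cultured cells given T-cell-derived lysosomes, which the methods call secreted granules, for 48 hours according to the labels and for a shorter time according to the methods. Tumor libraries (1, 3 and 4) came from cells sorted out of relapsed tumors whose RNA was extracted at once. The tumors were grown under the skin of mice of 6 weeks by the labels, which give this age and the strain for all libraries. No genetic change is named for any group, and the marker used for sorting is not given in the sources used here.

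Counts on genes ranged from 1667398 to 16402629 per library. At most 5049496 counts were found in WT 1, WT 2 and each Tumor library, and at least 10895611 in WT 3 and each Relapsed and Lyso library. A count of 3, taken as the floor of detection, stood for 0.183 to 1.8 CPM of unadjusted library size, depending on the library. Levels in CPM divide each count by the TMM-adjusted library size. Floors and intervals on counts cover counting error only. All 8 melanocyte markers had over 3 counts in each library, and their summed level was 19230 to 27460 CPM in WT and 19650 to 21570 CPM in Tumor, with 0 of 8 called in any group against WT. In Tumor, Mitf lay above WT (edgeR log2 fold change 0.99, adjusted p = 0.0113) and Tyrp1 below it (-0.66, adjusted p = 0.0251), short of the fold minimum for a call. The Tumor libraries also carried a fibroblast list, whose values stand beside the Tumor results. No label says that replicates came from separate cultures or animals, so p-values measure the spread between these libraries.

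Tumor was the group in which the complement genes stood apart. Called genes had a Benjamini-Hochberg adjusted p under 0.05 from edgeR's quasi-likelihood test over 14924 genes and an absolute log2 fold change over 1. Of the 9 genes, 6 were called higher in Tumor than in WT (C3, C1s1, C1ra, C4b, Serping1 and Cd55), against 8.56% of all genes tested, and 2 were called lower (Cd59a and Masp1), against 2.2%. In Lyso against WT, 1 was called higher (C4b), against 2.43%, and 1 lower (Masp1), against 0.576%. In Relapsed against WT, 0 were called higher, against 0.0134%, and 1 lower (Masp1), against 0.0268%. At an unadjusted p, no other of the 9 genes passed 0.05 in Relapsed against WT, and DESeq2 also called Masp1 alone. All 9 genes passed the filter on low counts, but C3, Serping1 and Cd55 did so only through Tumor, where they are high. The count of genes called higher in Tumor and the Tumor median below are therefore partly fixed by the filter. The median log2 fold change over the 9 genes was 4.70 in Tumor against WT, beside 0.00142 over all genes tested, and 0.52 in Lyso against WT over the 6 genes with a fold, beside -0.00482. The comparisons with WT share the WT libraries, so their values are not independent of each other.

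**Figure D1:**
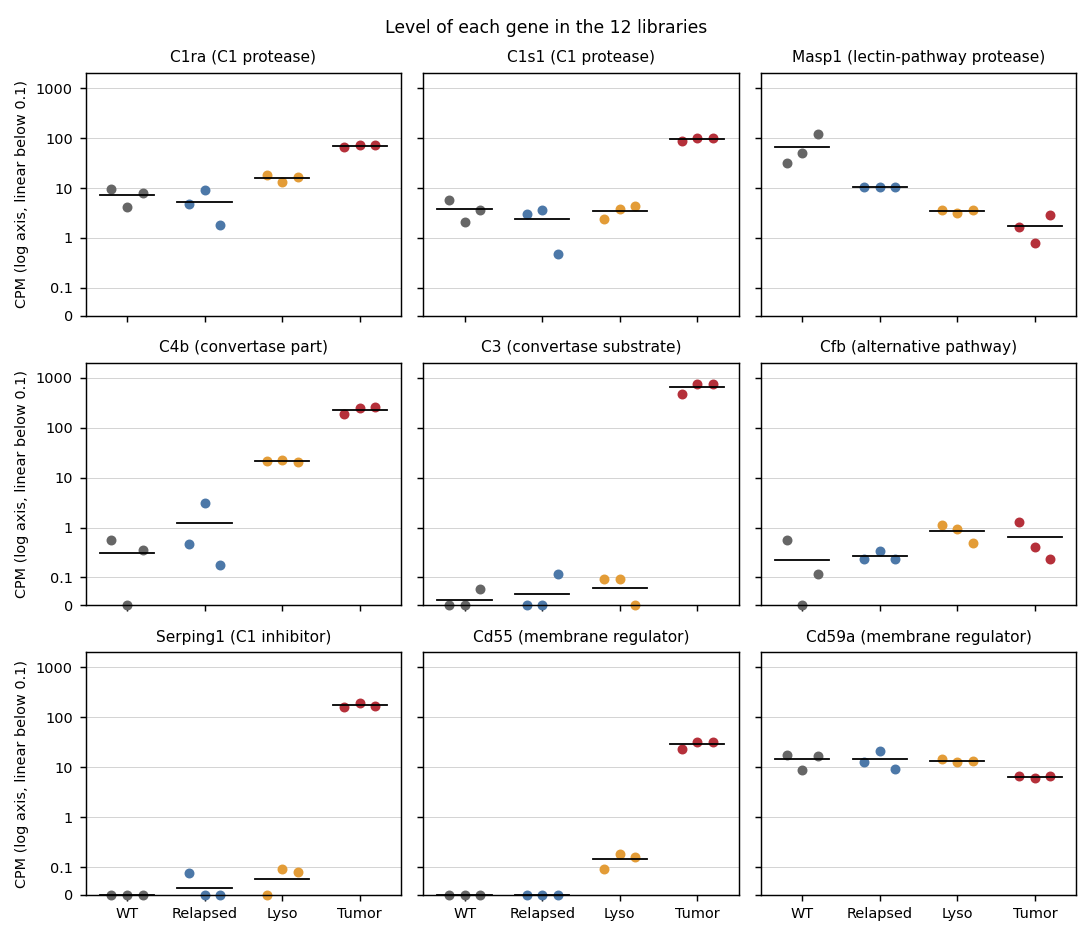
Level in CPM (log axis, linear below 0.1) of the 9 genes in each of the 12 libraries, with a panel for each gene, points for libraries and a line for the mean of 3. C3, Serping1 and Cd55 lie at or near 0 outside Tumor, C4b rises from WT to Lyso to Tumor, and Masp1 is highest in WT.

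The stretches before the starts of 4 of the genes are shown. These had a promoter entry whose upstream bases did not run into the annotated gene. Of the 4, 3 (C3, C1s1 and Cd55) were higher in Tumor and the fourth (Cd59a) was lower. Each holds the 250 bases upstream of the start in RefSeq on GRCm38.p6, read 5′ to 3′ on the strand of the gene, with matches to a searched motif in capitals. C3 lies at chr17:57228137-57228386 on the minus strand, C1s1 at chr6:124542360-124542609 on the minus strand, Cd55 at chr1:130462745-130462994 on the minus strand and Cd59a at chr2:104095551-104095800 on the plus strand.
C3: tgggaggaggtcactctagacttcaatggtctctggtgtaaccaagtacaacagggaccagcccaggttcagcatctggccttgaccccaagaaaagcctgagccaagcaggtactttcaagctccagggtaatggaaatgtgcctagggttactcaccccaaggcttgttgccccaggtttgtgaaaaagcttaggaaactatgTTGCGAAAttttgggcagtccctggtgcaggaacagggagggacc
C1s1: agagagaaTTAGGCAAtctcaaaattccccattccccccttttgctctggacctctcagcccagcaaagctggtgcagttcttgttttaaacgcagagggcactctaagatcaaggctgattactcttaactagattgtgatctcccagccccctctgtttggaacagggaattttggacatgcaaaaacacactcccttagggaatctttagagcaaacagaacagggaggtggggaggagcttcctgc
Cd55: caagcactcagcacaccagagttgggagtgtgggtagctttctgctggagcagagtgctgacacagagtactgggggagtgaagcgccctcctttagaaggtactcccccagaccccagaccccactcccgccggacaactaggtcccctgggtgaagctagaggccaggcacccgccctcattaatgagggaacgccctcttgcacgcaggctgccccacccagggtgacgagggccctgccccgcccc
Cd59a: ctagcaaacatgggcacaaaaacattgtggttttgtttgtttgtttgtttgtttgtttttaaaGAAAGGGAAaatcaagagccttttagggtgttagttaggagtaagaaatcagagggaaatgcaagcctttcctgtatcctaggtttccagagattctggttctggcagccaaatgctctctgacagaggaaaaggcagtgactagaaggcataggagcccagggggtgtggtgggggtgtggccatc
The capitals in C3, at positions -45 to -38 from the start, and in C1s1, at -242 to -235 on the opposite strand, match the C/EBP motif TTGCNNAA, which 10.8% of all 32851 promoter windows of 300 bases held on either strand. The capitals in Cd59a, at -187 to -179, match the interferon response motif GAAANNGAA, held by 8.56% of windows. The window of Cd55 held no match to these motifs, to the STAT motif TTCNNNGAA (8.3% of windows), to the AP-1 motif TGANTCA (7.81%) or to the NF-kB motif (8.46%). The window of C1ra held a STAT match at 32 to 40 and a C/EBP match at 16 to 23 bases past its start. No 2 of these matches overlapped each other. The promoter entries used here held none for Cfb, C4b, Serping1 and Masp1. The stretches differed in base composition, with a GC content of 52% in C3, 48% in C1s1, 64% in Cd55 and 44.8% in Cd59a.

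C1ra and C1s1 encode the C1r and C1s proteases of the C1 complex, which lie near each other on chromosome 6 of GRCm38 (124512405 to 124523443 on the plus strand and 124530345 to 124542359 on the minus strand). C1ra had 9.62, 4.22 and 8.08 CPM in WT 1, 2 and 3, and 66.3, 73.3 and 72.0 CPM in Tumor 1, 3 and 4. It had 18.4, 13.3 and 16.9 CPM in Lyso 1, 2 and 3, and 4.68, 9.04 and 1.86 CPM in ITF1, Rel and ITM. The Tumor libraries lay above all others and the Lyso libraries above WT and Relapsed, while WT and Relapsed overlapped. C1ra was 9.49-fold higher in Tumor than in WT (log2 fold change 3.25, SE 0.44, adjusted p = 0.000263). Its log2 fold change in Lyso against WT was 1.13 (SE 0.43, adjusted p = 0.177), which did not pass the test although the libraries did not overlap. It passed in a fit of Lyso and WT alone (1.12, adjusted p = 0.0347) and without the filter on low counts (1.11, adjusted p = 0.00328).

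C1s1 had 5.66, 2.11 and 3.72 CPM in WT 1, 2 and 3, and 87.4, 101.2 and 100.5 CPM in Tumor 1, 3 and 4. It had 2.45, 3.73 and 4.29 CPM in Lyso 1, 2 and 3, and 2.99, 3.68 and 0.479 CPM in ITF1, Rel and ITM. The cultured groups overlapped, and Tumor lay above them all. C1s1 was 26-fold higher in Tumor than in WT (log2 fold change 4.70, SE 0.50, adjusted p = 3.82e-05), and its log2 fold change in Lyso was -0.08 (SE 0.53, adjusted p = 0.974). The level of C1s1 per kilobase of exon relative to that of C1ra was 0.438 to 0.56 in WT, 0.246 to 0.609 in Relapsed, 0.127 to 0.267 in Lyso and 1.26 to 1.33 in Tumor. The ratio was higher in each Tumor library than in any cultured library. Of the 75-base stretches of their transcripts, 42.4% of C1ra occur also in C1rb or Gm18840 and 13% of C1s1 in C1s2. Reads that align to more than 1 place were not counted. With length taken only over the stretches found in no other gene, a choice made after the data were seen, the ratio was 0.272 to 0.348 in WT, 0.153 to 0.378 in Relapsed, 0.0789 to 0.166 in Lyso and 0.78 to 0.826 in Tumor. Which of the pair was higher in Tumor therefore turned with the length used, while the Tumor ratios stayed above the others. C1rb had 8 counts over the Tumor libraries and C1s2 at most 3 over any group. An antisense gene, Gm16567, overlaps 576 exonic bases of C1s1, and without a stated strand setting its reads cannot be told apart from those of C1s1.

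Masp1 encodes a protease of the lectin pathway (chromosome 16, 23449417 to 23520815, minus strand). Its means fell in the order WT, Relapsed, Lyso and Tumor, whereas the C1 proteases were highest in Tumor. It had 31.1, 50.2 and 121.2 CPM in WT 1, 2 and 3, where WT 3 stood above the other WT libraries. It had 10.7, 10.6 and 10.4 CPM in ITF1, Rel and ITM, and 3.68, 3.17 and 3.56 CPM in Lyso 1, 2 and 3. It had 1.63, 0.805 and 2.83 CPM in Tumor 1, 3 and 4, on 5, 4 and 12 counts. No library of any group overlapped those of another. Against WT, Masp1 was 6.64-fold lower in Relapsed (log2 fold change -2.73, SE 0.39, adjusted p = 0.0307), 20.2-fold lower in Lyso (-4.34, SE 0.43, adjusted p = 0.000211) and 40.6-fold lower in Tumor (-5.34, SE 0.52, adjusted p = 2.1e-05). Without WT 3 these log2 fold changes were -1.96 (adjusted p = 0.128), -3.55 (adjusted p = 0.000229) and -4.56 (adjusted p = 1.12e-05), so that the Relapsed call was lost, and it was also lost without Rel (-2.74, adjusted p = 0.125), in a test against a fold minimum with glmTreat (adjusted p = 0.301) and in a fit of WT and Relapsed alone (adjusted p = 0.61). Without Tumor 4 the log2 fold change of Tumor against WT was -5.94 (adjusted p = 0.000126). Lyso and Tumor, neighbours in this order, did not pass the test (Tumor minus Lyso -1.01, SE 0.60, adjusted p = 0.247), although they did in a fit of those groups alone (-1.004, adjusted p = 0.0432).

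C4b encodes C4, the first substrate of the C1s protease (chromosome 17, 34728380 to 34743882, minus strand), and it was the only one of the 9 genes called higher in Lyso than in WT. It had 1, 0 and 6 counts in WT 1, 2 and 3, which are 0.566, 0 and 0.354 CPM. In Lyso 1, 2 and 3 it had 231, 237 and 260 counts, or 21.8, 22.1 and 21.1 CPM. In Tumor 1, 3 and 4 it had 190.2, 243.4 and 257.5 CPM. The means of the 4 groups lay in the order WT, Relapsed, Lyso and Tumor, and only WT and Relapsed overlapped. C4b was 63.1-fold higher in Lyso than in WT (log2 fold change 5.98, SE 0.79, adjusted p = 0.000843) and 672-fold higher in Tumor than in WT (9.39, SE 0.73, adjusted p = 2.7e-06). Tumor exceeded Lyso 10.7-fold (log2 fold change 3.41, SE 0.42, adjusted p = 9.12e-05).

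Among the Relapsed libraries C4b was uneven, with 6 counts in ITF1, 46 in Rel and 3 in ITM, or 0.461, 3.08 and 0.18 CPM. Its log2 fold change in Relapsed against WT was 1.87 (SE 1.06, adjusted p = 0.55), and without Rel it was -0.11 (adjusted p = 1). C4a, a near-identical copy that shares 22.7% of the 75-base stretches of C4b, had 0.708 to 1.27 CPM in WT, 1.38 to 2.45 CPM in Lyso and 0.403 to 1.65 CPM in Tumor. It was not called in any of the 6 comparisons. Per kilobase of full exon length, with reads common to both copies uncounted, C4b stood at 0 to 0.545 times C4a in WT, at 9.68 to 16.7 times in Lyso and at 159 to 659 times in Tumor. The Tumor ratios rest on 4, 2 and 7 counts of C4a in Tumor 1, 3 and 4. Those of WT rest on 1, 0 and 6 counts of C4b and 2, 3 and 12 of C4a in WT 1, 2 and 3. The size of these ratios is therefore uncertain. C2, the partner of C4 in the convertase, was higher in Lyso than in WT (60.03 ± 2.87 against 26.6 ± 11.3 CPM, SD, n = 3, log2 fold change 1.24, adjusted p = 0.0366). C2 in Tumor was 49.7 ± 11.6 CPM (SD, n = 3), a log2 fold change of 0.97 that fell short of the fold minimum with an adjusted p of 0.0458. The annotation places a readthrough gene, Gm20547, over 1656 of the 3872 exonic bases of C2 on the same strand. Zbtb12 overlaps 161 on the other strand. A count of C2 may therefore cover only part of the gene. The T cell list of 8 markers moved with the Lyso group, with a summed level of 8.75 to 10.3 CPM in Lyso and 1.27 to 6.79 CPM in WT. Lck held most of the mean sum, at 5.78 CPM in Lyso and 3.14 CPM in WT. It was not called (log2 fold change 1.29, adjusted p = 0.307). Of that list 1 gene was called higher in Lyso (Cd8a), 2 of the 8 had at most 3 counts in each Lyso library, and Thy1 of the fibroblast list was called higher too. Their part in the C4b result was not tested.

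C3 encodes the central protein on which all complement routes meet (chromosome 17, 57203970 to 57228136, minus strand). It had 1461, 3744 and 3258 counts in Tumor 1, 3 and 4, or 474.9, 753.6 and 766.9 CPM. In the other 9 libraries it had at most 2 counts, with 1 count over WT, 2 over Relapsed and 2 over Lyso. C3 was thus at or under the floor in all cultured libraries, those given T-cell-derived lysosomes included. The ratio of pooled CPM in Tumor to WT was 14500 (95% counting interval 2610 to 574000), that of Tumor to Relapsed 15400 (4250 to 127000) and that of Tumor to Lyso 11600 (3210 to 95800). The fitted tests gave adjusted p-values of 6.41e-09, 1.09e-09 and 1.71e-09 for these comparisons, while the fitted folds depend on the prior count and are not given. C3 entered these tests only through its Tumor counts, so the p-values add no support beyond the counts themselves. Per kilobase C3 stood at 2.77 to 3.43 times C4b in the Tumor libraries, and at 2.14 to 2.65 times with length taken only over unshared stretches. None of the 75-base stretches of C3 occurs in another gene.

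Cfb encodes factor B of the alternative pathway (chromosome 17, 34856374 to 34862518, minus strand), and its counts were low in all groups. It had 1, 0 and 2 counts in WT 1, 2 and 3, 3, 5 and 4 in ITF1, Rel and ITM, 12, 10 and 6 in Lyso 1, 2 and 3, and 4, 2 and 1 in Tumor 1, 3 and 4. The ratio of pooled CPM to WT was 5.84 in Lyso (95% counting interval 1.8 to 30) and 4 in Tumor (0.914 to 24), and the tests gave adjusted p-values of 0.101 and 0.177. The annotation places the readthrough gene Gm20547 over 2246 of its 2825 exonic bases on the same strand, so that reads there belong to both genes and a count of Cfb covers only the rest. Gm20547 itself had 0 counts in all libraries. The level of Cfb is therefore not comparable with those of the other genes.

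Serping1 encodes the C1 inhibitor, which blocks the C1 and lectin-pathway proteases (chromosome 2, 84765387 to 84775444, minus strand). It had 496, 967 and 730 counts in Tumor 1, 3 and 4, or 161.2, 194.6 and 171.8 CPM. Elsewhere it had 0 counts in WT, 1 over Relapsed and 2 over Lyso. As with C3, the gene was above the floor in Tumor and in no library of the other groups. It was at least 1250-fold higher in Tumor than in WT, taking 3 counts over the WT group as the floor, and the ratio of Tumor to Lyso was 3010 (95% counting interval 831 to 24800) and that of Tumor to Relapsed 7970 (1430 to 315000). The tests of these 3 comparisons gave adjusted p-values of 1.85e-08, 4.73e-09 and 2.79e-09. As Serping1 too was tested only through its Tumor counts, these p-values add no support beyond the counts.

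Cd55 encodes decay-accelerating factor, a membrane regulator of the convertases (chromosome 1, 130439027 to 130462744, minus strand). It had 72, 157 and 133 counts in Tumor 1, 3 and 4, or 23.4, 31.6 and 31.3 CPM, and 0 counts in WT and in Relapsed. In Lyso 1, 2 and 3 it had 1, 2 and 2 counts. Cd55 was at least 207-fold higher in Tumor than in WT and at least 438-fold higher than in Relapsed, with 3 counts over the lower group as the floor (adjusted p = 4.31e-06 and 6.97e-07). Tumor also exceeded Lyso (adjusted p = 1.66e-06), where the fitted fold rests on 5 counts. Cd55 passed the filter only through Tumor, so the p-values of these Tumor comparisons add no support beyond the counts. Its copy Cd55b had 0 counts in all libraries. An antisense gene, Gm16083, overlaps 102 of its exonic bases.

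Cd59a encodes the inhibitor of the membrane attack complex (chromosome 2, 104095801 to 104115354, plus strand), and it was the regulator that was present in all cultured groups. It had 17.5, 8.87 and 16.9 CPM in WT 1, 2 and 3, and 12.8, 21.4 and 9.05 CPM in ITF1, Rel and ITM. It had 14.4, 12.5 and 13.3 CPM in Lyso 1, 2 and 3, and 6.83, 6.04 and 6.59 CPM in Tumor 1, 3 and 4. The cultured groups overlapped, and the Tumor libraries lay below all of them, on 21, 30 and 28 counts. Cd59a was 2.27-fold lower in Tumor than in WT (log2 fold change -1.18, SE 0.34, adjusted p = 0.0281). The call was lost without WT 3 (log2 fold change -0.995, adjusted p = 0.137), without Tumor 1 (-1.22, adjusted p = 0.0636), without Tumor 3 (-1.14, adjusted p = 0.0956) and without Tumor 4 (-1.2, adjusted p = 0.0752). In Lyso its log2 fold change against WT was -0.13 (SE 0.30, adjusted p = 0.878) and in Relapsed -0.03 (SE 0.30, adjusted p = 1). Its copy Cd59b had 1 count, in Lyso, over all libraries.

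**Figure D2:**
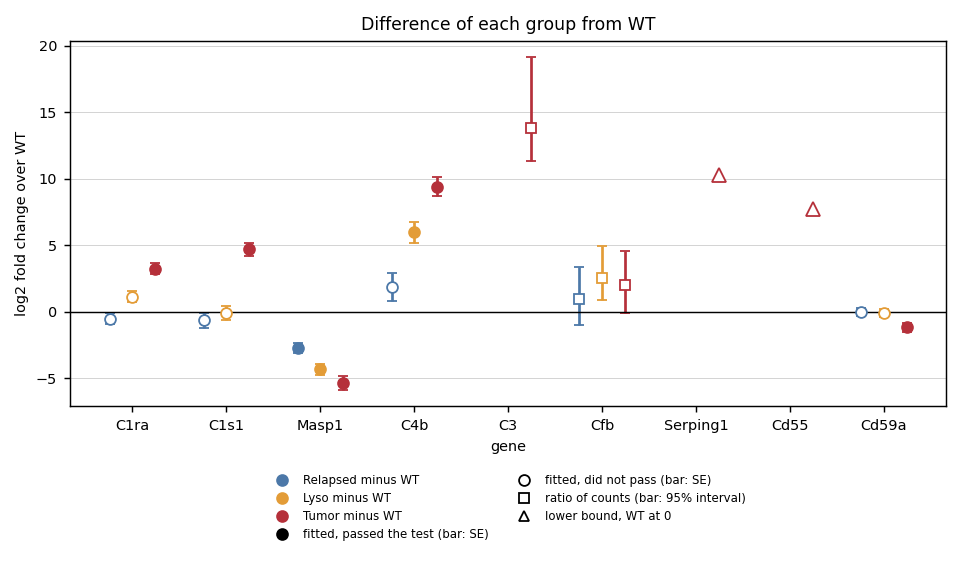
Log2 fold change of Relapsed, Lyso and Tumor over WT for the 9 genes. Circles are fitted values with their SE, filled where the test was passed, squares are ratios of pooled counts with 95% counting intervals where WT held 1 to 3 counts, and triangles are lower bounds where WT held 0. No value is drawn where both groups were at or under 3 counts in each library.

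The remaining comparisons did not involve WT. Between Tumor and Lyso, 6 of the 9 genes were called higher in Tumor (C3, C1s1, C1ra, C4b, Serping1 and Cd55), against 8.78% of all genes tested, and 1 lower (Cd59a), against 4.14%. C1s1 was 27.4-fold and C1ra 4.35-fold higher in Tumor than in Lyso (log2 fold changes 4.78, SE 0.45, and 2.12, SE 0.38, adjusted p = 1.07e-05 and 0.00137). Between Tumor and Relapsed, 6 were called higher in Tumor, against 8.36%, and 2 lower (Cd59a and Masp1), against 2.31%. As C3, Serping1 and Cd55 passed the filter on low counts only through Tumor, the counts called higher are partly fixed by it. C1s1 was 41-fold, C1ra 13.6-fold and C4b 184-fold higher in Tumor than in Relapsed (log2 fold changes 5.36, 3.77 and 7.53, adjusted p = 4.64e-06, 3.15e-05 and 8.34e-07). Without Rel the last 2 values were 4.45 (adjusted p = 8.01e-06) and 9.49 (adjusted p = 8.62e-09). Masp1 was 6.11-fold lower (log2 fold change -2.61, SE 0.54, adjusted p = 0.00447), and without Tumor 4 its value was -3.21 (adjusted p = 0.00836). Cd59a was 2.07-fold lower in Tumor than in Lyso and 2.23-fold lower than in Relapsed (adjusted p = 0.0322 and 0.0238), calls that were lost without any of the Tumor libraries or, against Lyso, without any Lyso library and, against Relapsed, without Rel (adjusted p = 0.0554 to 0.11 against Lyso and 0.061 to 0.0858 against Relapsed).

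Between Lyso and Relapsed, 2 groups of cultured cells, 3 genes were called higher in Lyso (C4b, C1ra and Cd55), against 3.21%, and 1 lower (Masp1), against 1.04%. C4b was 17.3-fold higher in Lyso (log2 fold change 4.11, adjusted p = 0.000413), and 6.08 on the log2 scale without Rel (adjusted p = 1.93e-06). C1ra was 3.13-fold higher (1.65, adjusted p = 0.023), a call that was lost without ITF1 (adjusted p = 0.0554), Lyso 1 (adjusted p = 0.0963) or Lyso 3 (adjusted p = 0.0747) and in a fit of Lyso and Relapsed alone (adjusted p = 0.0863), and without Rel the value was 2.33 (adjusted p = 0.00204). Masp1 was 3.04-fold lower (-1.60, adjusted p = 0.0339), a call that was lost without ITF1 (adjusted p = 0.0602), without Rel (adjusted p = 0.0669) and without any of the Lyso libraries (adjusted p = 0.111 to 0.126). The call of Cd55 rests on 5 counts over Lyso and 0 over Relapsed, all at or under the floor of 3 counts in a library, so no fold is given for it.

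Per kilobase of exon, the order of the 9 genes changed between the cultured cells and Tumor. In WT, Cd59a (7.98 ± 2.67 CPM per kb, SD, n = 3) and Masp1 (6.87 ± 4.83) led and overlapped within their spread, followed by C1ra (2.45 ± 0.93). In Lyso, Cd59a (7.4 ± 0.54) led, followed by C1ra (5.44 ± 0.88) and C4b (3.8 ± 0.09). In Tumor, C3 (129.3 ± 32.1) led, followed by Serping1 (75.7 ± 7.34), C4b (40.5 ± 6.24), C1s1 (30.8 ± 2.48) and C1ra (23.7 ± 1.24), while Cd59a (3.58 ± 0.22) stood in place 7 and Masp1 (0.178 ± 0.10) in place 9. These levels use the full exon length, and over unshared stretches alone the order turned in places. In Tumor, C1ra (42.1 ± 2.22) then stood above C1s1 (34.1 ± 2.74), and in Lyso, C1ra (9.69 ± 1.56) stood above Cd59a (7.52 ± 0.55). C3, Serping1 and C4b still led in Tumor, and Cd59a in WT and Relapsed. The summed level of the 9 genes was 1013 to 1410 CPM in Tumor, 65.1 to 150.4 CPM in WT, 22.3 to 48.2 CPM in Relapsed and 56.1 to 62.1 CPM in Lyso.

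**Figure D3:**
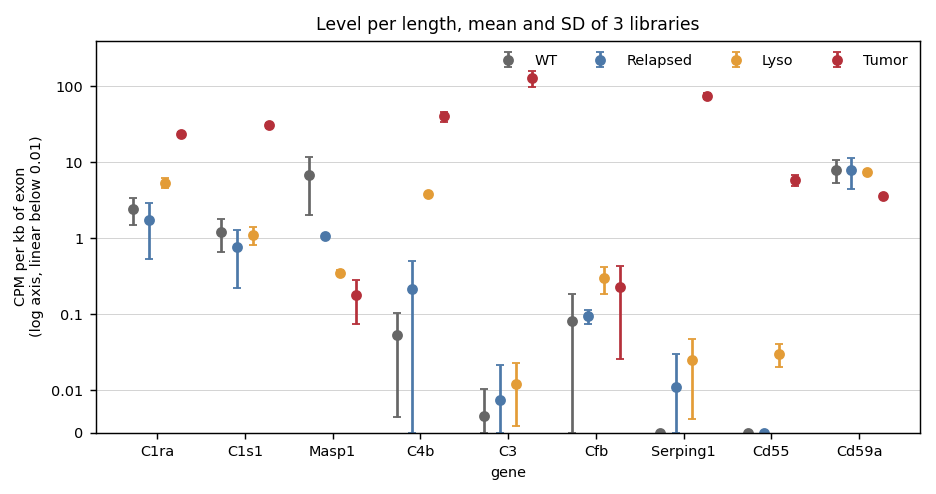
Level per kilobase of exon (CPM per kb, log axis, linear below 0.01) of the 9 genes, as the mean of 3 libraries with SD bars that end at 0. In Tumor, C3 and Serping1 are the highest of the 9, while in WT, Relapsed and Lyso Cd59a is, although over unshared stretches C1ra leads in Lyso.

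Markers of fibroblasts were higher in Tumor than in WT, as were 6 of the 9 complement genes, while Cd59a and Masp1 were lower and Cfb was not called. All 10 genes of the fibroblast list were called higher in Tumor than in WT, and their summed level was 7633 to 10660 CPM in Tumor, 16.9 to 24.9 CPM in WT, 14.5 to 23.1 CPM in Relapsed and 12.8 to 14.5 CPM in Lyso. Within Tumor, the sum was highest in Tumor 1 (10660 CPM), where C3 was lowest (474.9 CPM). In WT, 5 of the 10 had at most 3 counts in each library, and Lum and Thy1 had 0. Of the myeloid list 5 of 10 genes were called higher in Tumor (Lyz2, Adgre1, Cd14, Fcer1g and Cd74), with a sum of 58.2 to 226.2 CPM against 16.4 to 31.6 CPM in WT, where Adgre1, Aif1, Fcgr3 and Tyrobp had 0 counts. Cd74 held 67.3 CPM of the mean Tumor sum of 123.2 CPM. Csf1r rose and Cd68 fell without being called (log2 fold changes 0.71 and -0.31), and Aif1, Fcgr3 and Tyrobp were not tested. Of the endothelial list 5 of 8 were called higher (Pecam1, Cdh5, Kdr, Tek and Tie1), with a sum of 264.5 to 306.2 CPM against 295.5 to 440.3 CPM. Egfl7 and Eng went the other way without being called (log2 fold changes -0.80 and -0.44). Eng held most of the sum, at 254.1 CPM in Tumor against 343.3 CPM in WT. Of the 8 T cell markers 0 were called, and the 4 keratinocyte markers had at most 3 counts in each library of all groups. The part of these cell types in the Tumor levels of the complement genes was not tested, and in bulk RNA fewer cells of a type and less RNA per cell cannot be told apart.

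**Figure D4:**
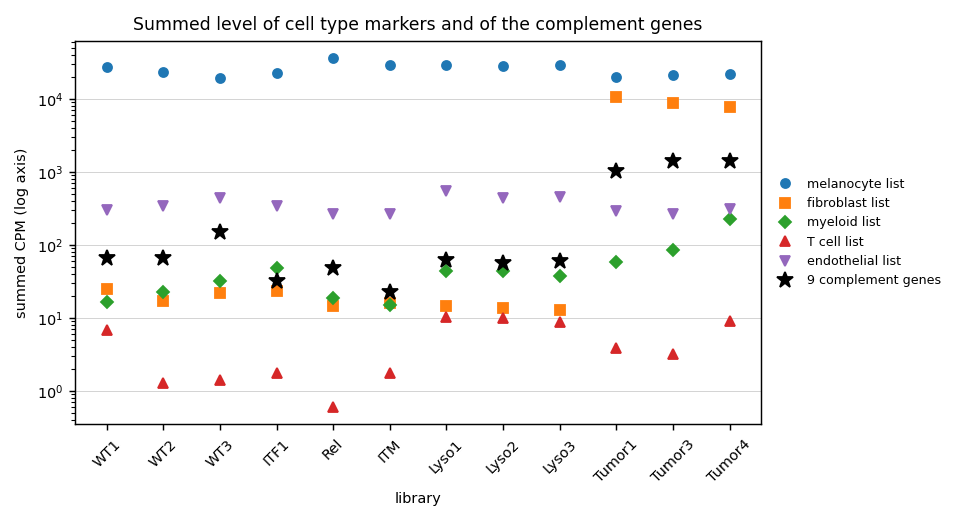
Summed CPM (log axis) of 5 lists of cell type markers and of the 9 complement genes in each library. The fibroblast list and the sum of the 9 complement genes are both highest in Tumor 1, 3 and 4, although Cd59a and Masp1 are lowest there. The melanocyte list stays between 19230 and 36000 CPM in all 12 libraries.

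Of the 48 other complement genes, 17 passed the filter on low counts. Of these, 7 were called higher in Tumor than in WT, against 8.56% of all genes tested, and 0 lower. As 5 of the 7 (C1qa, C1qb, C1qc, C5ar1 and Cd93) had at most 3 counts in each library of the other groups and passed the filter only through Tumor, that count is partly fixed by the filter. In Lyso 1 was called higher than in WT (C2), against 2.43%, and 0 lower, and in Relapsed 0 were called in either direction. The recognition molecule C1q was seen in Tumor alone, where its chains C1qa, C1qb and C1qc had 64, 84 and 68 counts over 3 libraries and 0 in all others, which puts them at least 36.6-fold, 48-fold and 38.9-fold above WT. Colec11, a collectin that starts the lectin pathway, was called too (2.33 ± 0.47 against 0.576 ± 0.50 CPM, SD, n = 3, adjusted p = 0.0318). Its WT level rests on 0, 2 and 15 counts in WT 1, 2 and 3. Colec11 was not particular to Tumor, with 2.09 ± 0.382 CPM in Lyso and 1.26 ± 0.295 CPM in Relapsed, and it was not called in Tumor against Lyso. Clusterin (Clu), a soluble regulator of the terminal pathway, was called in Tumor against Lyso alone (4.73 ± 1.24 against 0.582 ± 0.197 CPM, adjusted p = 0.00689).

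Of the 10 receptors of complement proteins listed, 4 passed the filter, C5ar1 and Cd93 only through Tumor, and C5ar1, Cd93 and Itgb2 were called higher in Tumor than in WT. The C5a receptor C5ar1 had 21 counts over Tumor and 1 over WT (ratio 36, 95% counting interval 5.8 to 1490), Cd93 had 49 and 1 (ratio 84.1, 14.4 to 3390), and the integrin chain Itgb2 had 8.73 ± 3.08 against 0.717 ± 0.65 CPM (SD, n = 3, adjusted p = 0.00255). Properdin (Cfp), which stabilizes the alternative convertase, was called only in Tumor against Relapsed (4.1 ± 0.73 against 1.55 ± 0.22 CPM, adjusted p = 0.0226). The membrane regulator Cr1l, the mouse relative of CR1, stayed at 47.8 ± 7.16, 49.1 ± 9.63, 43.7 ± 4.5 and 47.1 ± 4.79 CPM (SD, n = 3) in WT, Relapsed, Lyso and Tumor and was not called in any comparison. Of the 6 terminal pathway genes 1 passed the filter, C8g, and it was not called. Between Tumor and Lyso and between Tumor and Relapsed, 7 of the 17 were called higher in Tumor each time, against 8.78% and 8.36% of all genes tested and with the same 5 genes among them, and between Lyso and Relapsed 0 were called.

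**Figure D5:**
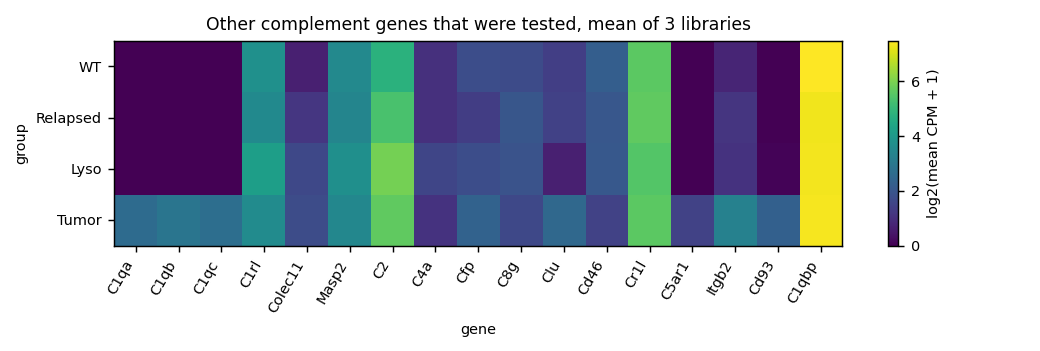
Mean level, as log2(CPM + 1) by color, of the 17 other complement genes that passed the filter in the 4 groups, each the mean of 3 libraries. C1qa, C1qb, C1qc, C5ar1 and Cd93 are at or near 0 outside Tumor.

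Likeness of pattern was described by Pearson's r of log2(CPM + 1) over the 12 libraries, which share group and depth. The 3 most alike tested genes were C1qa, C1qc and Gpc3 for C3 (r from 0.9998 to 0.9999), Gda, Scara3 and Efemp1 for Serping1, and C3, C1qa and C1qc for Cd55. With r of at least 0.95, 457 genes were alike to C3, 473 to Serping1 and 462 to Cd55, so this pattern was a common shape in these libraries. C1s1 was most like Hilpda, Klf11 and Dusp1 (r from 0.983 to 0.991), C1ra like Prelp, Foxc1 and Selenow (0.962 to 0.976) and C4b like Gm26669, Junb and Ifi207 (0.982 to 0.99). At the same minimum of 0.95, 322 genes were alike to C1s1, 13 to C1ra and 39 to C4b. Masp1 was most like Tanc2, Adh7 and Nde1 (0.917 to 0.967), Cd59a like Blvrb, BC004004 and Rnf11 (0.94 to 0.962), and Cfb like Tmem141, Gm39318 and Setd1b (0.87 to 0.883). Between the 9 genes, r was 0.953 for C1ra and C4b, 0.928 for C1ra and C1s1, -0.797 for C3 and Cd59a and -0.846 for C4b and Masp1.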

How the data were processed

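RNA of B16F10 cells was sequenced by the authors in 12 libraries. Reads were trimmed with fastp 0.19.6 and aligned with STAR 2.7.1a to GRCm38, per the labels. The authors deposited raw counts per Ensembl gene without normalization. Strand setting and annotation release are not given in the sources used here. The table holds 54232 genes and 4 rows of reads not counted on a gene, which were left out (43.53% to 44.77% of reads fell on no feature). Symbols, positions and exon lengths came from GENCODE M21, promoters from RefSeq.

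Counts were fitted with edgeR 4.0.16 in R 4.3.3 (glmQLFit, glmQLFTest, TMM, filterByExpr by group, 12 libraries in 1 fit). SE is the log2 fold change over the root of F. Tests were tried on simulated data. No replicate pair agreed within sampling noise (chi-square per degree of freedom 1.59 to 73.4). Alternatives were DESeq2 1.42.0, other scalings, filters, call rules, sets of libraries and a replicate block. Sums and figures used Python 3.11.15. The 9 genes, the other complement genes, their copies, the markers and the 3 most alike genes were named by rule. Genes and lists were chosen with earlier results of these data known. A further gene of the complement list is not reported here.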

Additional observations from a re-analysis of the deposited data

How the results depend on the processing

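Under DESeq2, RLE size factors and library size alone, each log2 fold change kept its direction. Requiring 10 counts in each compared library, which drops genes at 0 in a group, left 1 of the 9 genes called in Lyso against WT, 2 in Tumor against WT, 4 in Tumor against Lyso, 2 in Tumor against Relapsed and 2 in Lyso against Relapsed. With glmTreat, 0 were called in Relapsed against WT and 1 in Lyso against Relapsed, and a fit of only the compared groups called 0 and 2, where the cause was not tested. Leaving out each library in turn gave 0 to 1 in Relapsed against WT and 1 to 3 in Lyso against Relapsed. Signs turned only for uncalled values, given as ranges over the left-out libraries. In Lyso against WT, C1s1 ran from -0.26 to 0.11 (0.07 without WT 1) and Cd59a from -0.36 to 0.062. In Relapsed against WT, Cd59a ran from -0.43 to 0.22 (0.05 without WT 1, 0.15 without WT 3 and 0.04 without ITF1) and C4b from -0.11 (without Rel) to 2.42. In Lyso against Relapsed, Cd59a ran from -0.36 to 0.29. Against WT 1 and WT 2 alone, 7 genes were called in Tumor, all of those reported but Cd59a. Against WT 3 alone the log2 fold change in Lyso was 5.88 for C4b and -5.13 for Masp1, with no test.

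Same-numbered WT, Lyso and Tumor libraries showed correlations of -0.0151 to 0.1 between their deviations from the group means. With 3 libraries per group, these values cannot show whether the numbers pair samples. With the number as a replicate block, 3 of the 9 genes were called in Lyso against WT (C1ra added, log2 fold change 1.17, adjusted p = 0.0103), 8 in Tumor against WT and 7 in Tumor against Lyso. Over all genes, calls in Lyso against WT ranged from 121 with glmTreat to 829 without the filter (448 as reported), in Tumor against WT from 449 to 2843 (1607), in Relapsed against WT from 0 to 265 (6, and 101 with DESeq2), in Tumor against Lyso from 929 to 3691 (1929), in Tumor against Relapsed from 647 to 2920 (1591) and in Lyso against Relapsed from 172 to 1147 (634). Shallow WT 1 and WT 2 limit what can be seen of genes under 1.8 CPM of unadjusted library size. Over unshared stretches, an alternative added after seeing the data, the mean C1s1 to C1ra ratio per length in Tumor was 0.808 in place of 1.30.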
